A study of Mus musculus with 2 samples.

Results

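The gamma crystallin genes of the mouse are 8 protein-coding genes, Cryga, Crygb, Crygc, Crygd, Cryge, Crygf, Crygn and Crygs, out of 21887 on chromosomes 1 to 19, X and Y in the RefSeq table of build GRCm38.p6 (mm10). They were chosen by name. A peak was assigned to a gene when its summit lay inside the gene or within 10 kb of either end. The peaks came from chromatin immunoprecipitation with sequencing (ChIP-seq) on frozen mouse embryo heads at stage E10.5, pulled down with the antibody sc-9996 against green fluorescent protein (GFP). The study concerns histone H3.2 and the eye, but the labels name no protein that carried GFP, no genotype, strain, sex or litter, no pooling of embryos and no control library. Both libraries carry the same labels, so they formed 1 group and are called library 1 (584724 peaks) and library 2 (348 peaks). No contrast between conditions exists, each list is 1 library, and nothing below has a p-value. Intervals are 95% exact Poisson intervals, which cover counting error only.

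Crystallins are the soluble proteins that fill lens fibre cells and give the lens its refractive index. The gamma family shares with the beta family a compact fold built from Greek key motifs. Cryga to Crygf are the classical lens members, made in fibre cells once these elongate, at stages later than the heads studied here. Crygs is made mostly in fibre cells added later in life. Crygn is an early branch between the beta and gamma families and is known in mouse from the retina and the hindbrain. Several members carry mouse cataract alleles, which RefSeq lists as synonyms, such as Nop for Crygb, Elo for Cryge and Opj for Crygs. The lens is a small part of a head at this stage, and peaks from a whole head cannot show which cells they came from. No expression values were used, so the tissue was not checked against markers.

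On chromosome 1 the classical members did not form a single tandem run in this build. Cryge, Crygd, Crygc, Crygb and Cryga followed each other in that order, all on the minus strand, with gaps of 10.02, 8.08, 6.69 and 18.1 kb. Crygf lay 823 kb beyond Cryga and on the plus strand. The 10 kb windows of the 5 neighbouring genes joined into 1 window of 74.8 kb, while Crygf, Crygn on chromosome 5 and Crygs on chromosome 16 each had a window of their own.

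The promoters show how alike the 6 classical genes are and where Crygn and Crygs part from them. Each sequence below holds the 120 bases before the annotated start, on the gene's own strand, from the RefSeq promoter table of GRCm38.p6, in which all 8 genes were found. Capitals mark TATATA, and TTTGTG on the gene's strand, which were the longest runs of letters shared by all 6 classical genes in the 250 bases before the start.
Cryga, chr1:65103364-65103483: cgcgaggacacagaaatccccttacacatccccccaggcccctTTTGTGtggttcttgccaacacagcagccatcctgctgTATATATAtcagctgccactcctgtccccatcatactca
Crygb, chr1:65082291-65082410: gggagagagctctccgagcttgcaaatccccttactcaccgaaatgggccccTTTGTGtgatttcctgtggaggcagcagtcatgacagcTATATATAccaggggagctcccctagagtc
Crygc, chr1:65073533-65073652: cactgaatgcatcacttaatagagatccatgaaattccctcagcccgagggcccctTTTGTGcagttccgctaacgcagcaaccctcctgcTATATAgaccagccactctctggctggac
Crygd, chr1:65063441-65063560: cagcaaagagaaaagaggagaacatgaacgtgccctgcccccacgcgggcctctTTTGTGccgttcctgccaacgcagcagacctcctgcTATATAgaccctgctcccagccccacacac
Cryge, chr1:65051164-65051283: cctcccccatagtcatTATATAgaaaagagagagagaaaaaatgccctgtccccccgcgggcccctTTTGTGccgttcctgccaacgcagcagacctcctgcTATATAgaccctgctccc
Crygf, chr1:65926402-65926521: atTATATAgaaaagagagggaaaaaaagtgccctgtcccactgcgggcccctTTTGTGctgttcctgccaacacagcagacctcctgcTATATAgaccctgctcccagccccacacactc
Crygn, chr5:24757849-24757968: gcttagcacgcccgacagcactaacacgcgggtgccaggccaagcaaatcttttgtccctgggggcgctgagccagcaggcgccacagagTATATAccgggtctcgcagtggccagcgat
Crygs, chr16:22811411-22811530: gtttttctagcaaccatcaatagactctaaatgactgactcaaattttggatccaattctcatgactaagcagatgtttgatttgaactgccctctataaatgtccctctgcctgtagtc

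All 6 classical genes and Crygn held TATATA in the 250 bases before the start, and Crygs did not. Of 21263 promoters of protein-coding genes, 5.22% held it. TATATA reads the same on both strands. TTTGTG or its reverse complement CACAAA was found in the 6 classical genes but not in Crygn or Crygs, and in 14.1% of all promoters. Both motifs were picked from the 6 sequences, so their presence in those genes follows from the choice. Motifs chosen from a list gave a less even picture. TATAAA, a form of the TATA box, occurred in Crygs alone, at -25 to -20 from the start, and in 11.6% of all promoters. TATATA had a match at -30 to -25 in Crygb, Crygd and Crygn, -29 to -24 in Crygc and -32 to -27 in Crygf. In Cryga its matches lay at -39 to -34 and -37 to -32, and in Cryge the nearer match lay at -18 to -13. The core TGCTGA of MAF factors, which drive crystallin genes, occurred in Cryga, Crygc, Crygn and Crygs (14.9% of all promoters). ACAAT, the core of SOX factors, occurred in Crygd, Cryge, Crygf and Crygs (25.1%). AGGTCA, a core site of retinoid receptors, occurred in Cryga, Crygf and Crygn (12.8%). These matches were read on both strands and are descriptions of letters only.

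Identity over the 250 bases before the start was 81.1% between Cryge and Crygf, although these genes lie farthest apart among the 6. The 15 pairs of classical genes ranged from 52.8% to 81.1%, with a median of 57.4%. The 13 pairs that include Crygn or Crygs ranged from 42.6% to 50.7%, with a median of 47.5%. Over the 120 bases printed above, Crygd and Crygf were the most alike, at 84.7%, against 73.9% for Cryge and Crygf. Classical pairs there ranged from 51.8% to 84.7%, and pairs with Crygn or Crygs from 41.6% to 51.6%, so the 2 ranges nearly met. How the aligner treated reads that match 2 places is not given in the sources used here. Peaks in stretches alike between genes, such as Crygd, Cryge and Crygf, may be less certain for this reason. Only bases before the start were compared, not the genes themselves or their 3′ ends. The part of likeness between genes in the peak positions was not tested.

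**Figure D1:**
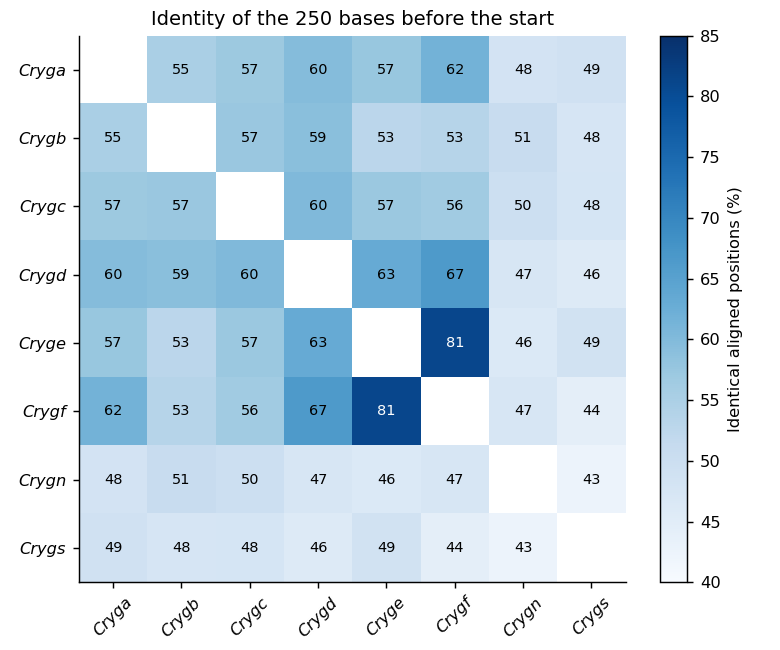
Percentage of identical aligned positions between each pair of gamma crystallin genes in the 250 bases before the start (rows and columns are genes, darker is more alike). Cryge and Crygf reach 81.1%, and pairs with Crygn or Crygs stay at or below 50.7%.

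Every gamma crystallin gene had library 1 peaks within 10 kb, and none had a library 2 peak. Such a count is close to the background, since the share among all protein-coding genes was 94.8% for this window. All 8 also had a summit inside the gene itself, where the share among all genes was 85.7%. For library 2 the background was 0.192% of genes, or 42 of 21887. The nearest library 2 peak lay 6.43 Mb from Cryge, 7.37 Mb from Crygn and 23.8 Mb from Crygs. Library 1 gave 25 distinct peaks at Cryga to Crygf, 14 at Crygn and 17 at Crygs, 56 in all.

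Among the classical genes, Cryga had the most peaks and Crygb the fewest. Cryga had 10 library 1 peaks in its window (4.80 to 18.4), Crygc had 6 (2.20 to 13.1), and Crygd and Cryge had 5 each (1.62 to 11.7). Crygf had 4 (1.09 to 10.2) and Crygb had 3 (0.619 to 8.77). These intervals overlap, so the order within the classical genes is not resolved at this depth. The counts add up to 33 because 6 of the 25 peaks lay in windows of more than 1 gene. Of the 10 peaks at Cryga, 5 had summits inside its neighbour D630023F18Rik. At the edge of the windows, the counted peak farthest from its nearest member lay 9.85 kb from Cryga with a fold of 3.42. The nearest peak left out of every window lay 11.2 kb from Cryga with a fold of 3.50.

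**Figure D2:**
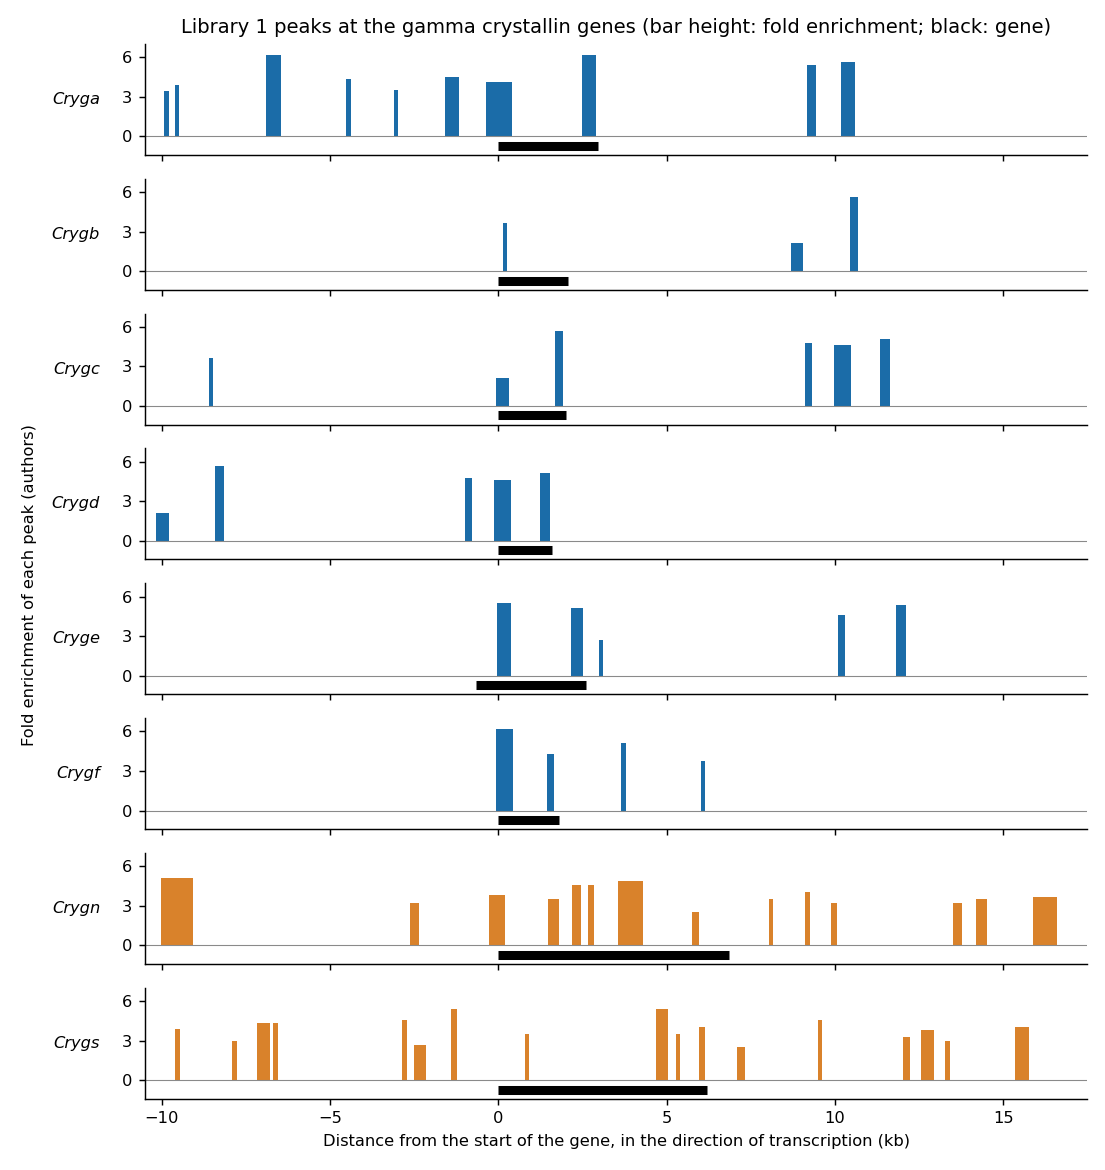
Library 1 peaks at the 8 genes by distance from the start in the direction of transcription (kb), with bar width showing peak width, bar height the authors' fold enrichment, and a black line the gene. Peaks stand at the start and near the 3′ end of most classical genes (blue), and are spread over a wider stretch at Crygn and Crygs (orange).

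The classical genes together had fewer peaks per kb within 10 kb than Crygn and Crygs together. Density was 0.259 peaks per kb (0.167 to 0.382) over the 96.6 kb of the 2 windows of Cryga to Crygf. It was 0.521 per kb (0.285 to 0.875) at Crygn and 0.649 per kb (0.378 to 1.04) at Crygs. The ratio of the classical genes to Crygn and Crygs together was 0.443, with a counting interval of 0.251 to 0.775. Over Crygs alone the ratio was 0.399 (0.207 to 0.787), and over Crygn alone it was 0.496 (0.248 to 1.03), an interval that does not separate the 2. The ratio over Crygn and Crygs together depended on distance and on peak strength. Within 1 kb of the genes it was 0.784 (0.324 to 1.93), and for peaks with a −log10 q of at least 5 it was 0.899 (0.402 to 2.11), so neither interval separates the 2 sets. With peaks within 1 kb of each other counted once, the ratio was 0.652 (0.318 to 1.36), an interval that also does not separate the 2 sets.

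Gene by gene, density ran from 0.136 per kb at Crygb through 0.184 at Crygf, 0.215 at Cryge, 0.231 at Crygd, 0.273 at Crygc and 0.435 at Cryga to 0.521 at Crygn and 0.649 at Crygs. Neighbours in this order did not differ beyond their counting intervals. The median of the 8 genes was 0.252 per kb, and the median of all protein-coding genes was 0.326 per kb, with quartiles of 0.134 and 0.590. At Crygb, 25.3% of genes had a density at or below it, and at Crygs 79.4%, so the members lay across the middle of the distribution. The chromosomes that hold them had 0.197 (chromosome 1), 0.287 (chromosome 5) and 0.197 (chromosome 16) peaks per kb.

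**Figure D3:**
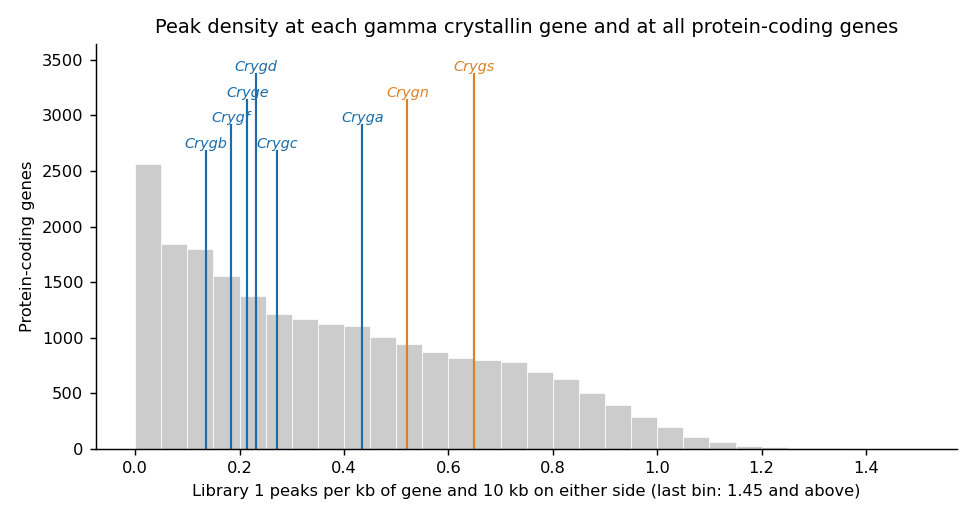
Number of protein-coding genes (y axis) by library 1 peaks per kb of the gene and 10 kb on either side (x axis), with the 8 gamma crystallin genes as lines. The classical genes (blue) range from 0.136 at Crygb to 0.435 at Cryga, below 0.521 at Crygn and 0.649 at Crygs (orange).

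The peaks of the classical genes, though sparser within 10 kb, had a higher median fold enrichment. Fold here is the authors' value, the reads at the summit over the caller's local background, with 1 added to each. Its median was 4.59 over the 25 peaks of Cryga to Crygf, 3.59 over the 14 peaks of Crygn and 3.91 over the 17 peaks of Crygs. All library 1 peaks had a median of 3.90, with quartiles of 3.27 and 4.58. A −log10 q of at least 5 was reached by 18 of 25 peaks (72%) at the classical genes, by 5 of 14 (35.7%) at Crygn and by 6 of 17 (35.3%) at Crygs, against 41.0% of the whole list. All 8 genes had such a peak, as did 88.2% of protein-coding genes. Summit pileup, the number of extended reads over the summit recovered from fold and p, had a median of 18 reads at the classical genes, 14.5 reads at Crygn and 14 reads at Crygs. These differences in fold and pileup were not tested.

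The strongest peaks lay at the classical genes. A fold of 5.39 bounds the 10% of library 1 peaks with the highest fold, and 7.88% exceed it because of ties. At Cryga to Crygf 6 peaks lay above it, and they were not spread as 1 per gene. A single peak, the 3′ peak of Crygc at chr1:65071602-65071855, was the only one above it in the windows of Crygb, Crygc and Crygd. None lay above it at Crygn or Crygs, although 2 Crygs peaks and 2 peaks of the classical genes stood at 5.39 itself. Of all protein-coding genes, 59.2% had a peak above it within 10 kb. The best fold of a member was 6.19 at Cryga and Crygf, 5.66 at Crygc, whose 3′ peak is also the best within 10 kb of Crygb and Crygd, 5.51 at Cryge, 5.12 at Crygn and 5.39 at Crygs. The median best fold was 5.66 over the 8 members and 5.79 over the 20739 genes with a peak.

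**Figure D4:**
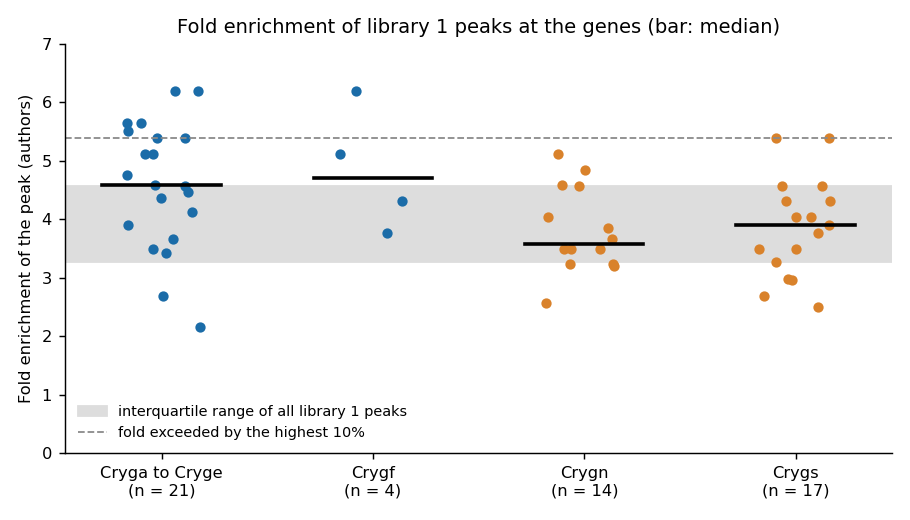
Fold enrichment of each library 1 peak (points, y axis) in the windows of the 5 neighbouring classical genes, Crygf, Crygn and Crygs, with medians as black bars, the interquartile range of all peaks in grey and a dashed line at 5.39. Points above the dashed line occur at the classical genes, including Crygf, and not at Crygn or Crygs.

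Inside the classical genes, peaks sat at the 2 ends and not between them. The 6 genes held 11 summits, and all 11 lay within 500 bp of the start or of the 3′ end, stretches that make up 46.0% of their length. All 6 had a summit in the first 500 bp, at 90 bp (Cryga), 114 bp (Crygc), 120 bp (Crygd), 196 bp (Crygb), 293 bp (Crygf) and 305 bp (Cryge) after the start. In 5 of 6 genes a further summit lay 151 bp (Cryga), 163 bp (Crygd), 193 bp (Cryge), 227 bp (Crygc) and 234 bp (Crygf) before the 3′ end. Crygb had none there. The pattern was noticed in these peaks and then counted.

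The same places in other genes give the background. Among 2860 protein-coding genes of 1 to 5 kb with an annotated start, 37.5% had a summit in the first 500 bp, 27.7% in the last 500 bp and 13.0% in both. Over all 16099 genes of at least 1 kb with an annotated start, the shares were 42.1% for the first and 24.1% for the last 500 bp. Of the summits inside the genes of 1 to 5 kb, 39.5% lay within 500 bp of an end, where 34.9% of the length lies. Crygn and Crygs, which are longer (6.85 and 6.21 kb), held 9 summits, of which 1 lay within 500 bp of an end. That summit lay 131 bp before the 3′ end of Crygs. With the gene table's outer end of Cryge in place of the start used here, 10 of the 11 summits of the classical genes lay near an end. Exons were not used here, so which exons the summits fall in is not given.

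**Figure D5:**
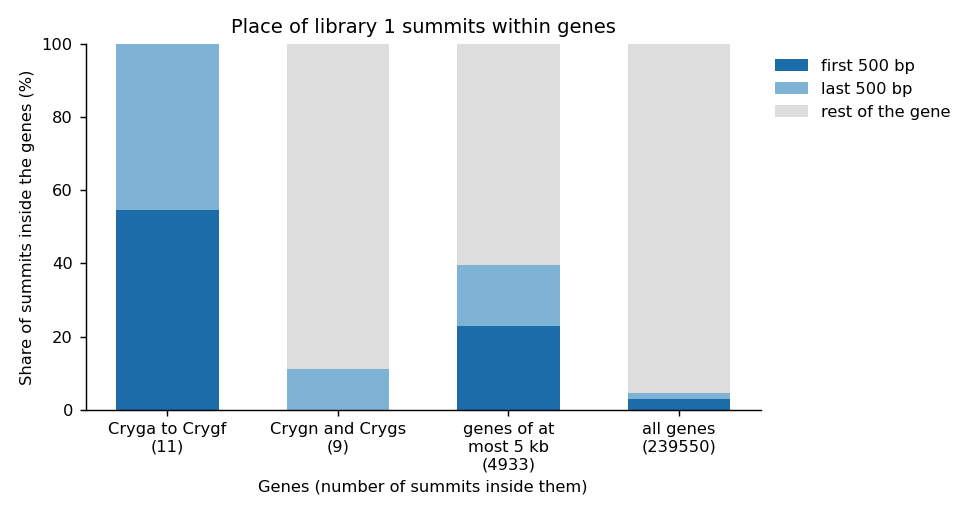
Share of library 1 summits inside genes (y axis, %) that lie in the first 500 bp, the last 500 bp or the rest of the gene. Groups are Cryga to Crygf, Crygn and Crygs, genes of 1 to 5 kb, and all genes of at least 1 kb with an annotated start. All 11 summits of the classical genes fall near an end, against 39.5% of summits in genes of 1 to 5 kb.

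The start peak of Crygf and the 3′ peak of Cryga were the highest inside the classical genes, both with a fold of 6.19. The Crygf start peak, at chr1:65926450-65926947, rested on a pileup of 22 reads (13.8 to 33.3). The Cryga 3′ peak, at chr1:65100462-65100867, had the same pileup. Only 2.28% of library 1 peaks had a higher fold. At Cryge the start peak had a fold of 5.51 and 23 reads (14.6 to 34.5), at chr1:65050799-65051211. The start peak of Crygd had a fold of 4.59 and 19 reads, that of Cryga 4.13 and 17 reads, and that of Crygb 3.67 and 15 reads. The lowest was the start peak of Crygc, with a fold of 2.15 and 12 reads (6.20 to 21.0). In the whole list, 0.401% of peaks had a fold at or below it. The intervals of the Crygc and Crygf start peaks overlap, so their pileups are not told apart at this depth.

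Except at Crygf, the caller used a higher background at the start peaks than at the 3′ peaks. All these backgrounds amount to a few extended reads, so the differences rest on little. At the 5 peaks near the 3′ end the background was the commonest value of the list, 2.71 extended reads, at every gene. At the start it was 2.71 reads at Crygf, 3.36 reads at Cryga, Crygb, Crygd and Cryge, and 5.04 reads at Crygc. Pileups had a median of 18 reads at either end, while the median fold was 4.36 at the start and 5.12 at the 3′ end. The 3′ peaks had folds of 6.19 at Cryga, 5.66 at Crygc, 5.12 at Crygd and Cryge, and 4.31 at Crygf. The part of the local background in the difference of folds was not tested.

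Peaks reached into the promoters of 5 of the 6 classical genes. Of the 300 bases from 250 before to 50 after the start, library 1 peaks covered 300 at Cryga, 173 at Crygd, 122 at Crygf, 114 at Crygc and 98 at Cryge. The Cryga peak, chr1:65102949-65103729, was 781 bp wide and spanned all of the printed Cryga sequence. At Crygb the only peak in the gene, 119 bp wide, ended short of the promoter. Outside the classical genes, the promoter of Crygn was covered in full by a peak at chr5:24757652-24758124. Its summit lay 45 bp before the start, with a fold of 3.85 and 19 reads (11.4 to 29.7). That summit also lay inside the long non-coding RNA gene Gm33591. The promoter of Crygs was not touched, and its nearest summits lay 896 bp after and 1302 bp before the start. Of all promoters of protein-coding genes, 40.5% were touched by a library 1 peak.

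Promoters also differed in base composition. The promoters of the classical genes held 48.7% to 51.7% G and C, that of Crygn 63% and that of Crygs 44.3%, against a median of 56.3% over all promoters. When all promoters were split into 4 groups of rising G and C content, the group that holds the 6 classical genes had 48.9% of promoters touched by a peak. The share was 54.9% in the group of Crygn and 11.0% in the group of Crygs, which has the least G and C. In the group with the most G and C it was 48.2%, so the share did not keep increasing. Among the 5 classical promoters touched, Cryge had the most G and C (51.7%) and the fewest covered bases (98). Cryga came next in G and C (50.7%) and had the most covered bases (300). These 5 promoters spanned only 49.0% to 51.7% G and C. CpG dinucleotides numbered 2 at Crygf, 4 at Crygb, 7 at Cryga and Crygd, 8 at Crygc, 11 at Cryge, 18 at Crygn and 3 at Crygs. The part of base composition in the peaks at these genes was not tested.

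Peaks took up more of the gene body in most classical genes than in a typical gene, as they also did at Crygn and most alpha and beta crystallins. Library 1 peaks covered 41.8% of Crygd, 34.9% of Crygf, 27.9% of Crygc, 27.6% of Cryga and 23.7% of Cryge. Crygb stood apart with 5.75%. Crygn had 28.7% and Crygs 12.1%. Among the alpha and beta crystallins, the share was 51.7% at Crybb3 and 1.12% at Cryba1, and the others had at least 20.5%. A high share was thus not particular to the classical genes. The median was 27.8% over the 8 members and 8.80% over all protein-coding genes, whose upper quartile was 21.2%. Gene length enters this share, since the classical genes are 1.60 to 3.26 kb long and a peak at either end fills much of such a gene.

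Outside the genes, peaks at the classical genes were unevenly placed. Between Crygb and Cryga, 2 peaks lay 6.25 and 7.56 kb beyond the 3′ end of Cryga, with folds of 5.39 and 5.66. Upstream of Cryga, a peak 1416 bp before the start had 26 reads (17.0 to 38.1), the highest pileup at any member, with a fold of 4.47 over a background of 5.04 reads. The peak 6794 bp before the start of Cryga, inside D630023F18Rik, reached a fold of 6.19. Crygd had a peak 885 bp before its start with a fold of 4.75. Crygf had 2 peaks beyond its 3′ end, at 1.93 kb with a fold of 5.12 and at 4.30 kb with a fold of 3.77, and none within 10 kb before its start.

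At Crygn, 5 of 14 summits lay in the gene. The highest fold among these, 4.85 with 17 reads, belonged to a peak of 747 bp placed 4056 bp after the start. The highest pileup among them, 19 reads with a fold of 4.59, lay 2280 bp after the start. The highest fold in the Crygn window, 5.12, belonged to a peak of 947 bp near the far edge, inside the long non-coding RNA gene Gm33591. At Crygs, 4 of 17 summits lay in the gene, which lies wholly within the long non-coding RNA gene Gm30416. The 2 highest Crygs peaks, both with a fold of 5.39 and 19 reads (11.4 to 29.7), lay 4961 bp after and 1302 bp before the start. A further 6 peaks in its window had summits inside the neighbouring gene Tbccd1.

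The stretch between Cryga and Crygf, outside both windows, held 105 peaks over 803 kb. Density was 0.281 per kb (0.174 to 0.429) at the 5 neighbouring genes, against 0.131 per kb (0.107 to 0.158) in that stretch. In the Crygf window it was 0.184 per kb (0.0500 to 0.470), an interval that holds the value of the stretch. The part of gene content in the difference between the 5 genes and the stretch was not tested. The median fold was 4.59 at the 5 genes and 4.04 in the stretch. The protein-coding genes between Cryga and Crygf were D630023F18Rik, Idh1, Pikfyve and Pth2r. Around the 5 genes, density was 0.420 per kb at D630023F18Rik, 0.298 at Plekhm3, 0.227 at Akr1cl, 0.167 at Idh1, which encodes an isocitrate dehydrogenase, and 0.125 at Pikfyve, a lipid kinase gene. No other protein-coding gene lay within 100 kb of Crygf.

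The neighbours of Crygn and Crygs ranged higher. Near Crygn, Wdr86 had 0.725 peaks per kb, Nub1 0.651 and Rheb, which encodes a small GTPase upstream of mTOR, 0.336. Near Crygs, Ahsg had 0.656, Dnajb11 0.455 and Tbccd1 0.403. All 6 of these neighbours had a higher density than Crygb, Crygc, Crygd, Cryge and Crygf, and 4 of them had a higher density than Cryga. Among all protein-coding genes, 44.1% had a density at or below that of Crygc, the densest of those 5, and 61.3% at or below that of Cryga. The 6 densities are not separate observations. Nub1 and Wdr86 overlap, and Tbccd1 lies 1.80 kb from Crygs, so their windows share peaks.

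A list of 31 other genes held alpha and beta crystallins, regulators, lens fibre genes, genes that share the crystallin fold and enzymes that serve as lens crystallins in other species. Library 1 peaks lay within 10 kb in 31 of 31 cases beside the 94.8% of all genes, and none had a library 2 peak. The 8 alpha and beta crystallins had a median of 0.775 peaks per kb, from 0.0750 at Cryba1, with 2 peaks, to 0.909 at Crybb3. Cryba4 had the most peaks, 31. The median best fold was 5.66 over the gamma crystallins and 5.39 over the alpha and beta crystallins. The gamma value is that of the 3′ peak of Crygc, which counts for Crygb, Crygc and Crygd alike. Peaks shared between windows of alpha and beta crystallins are not given here. The 11 regulators, which include factors that bind or drive gamma crystallin promoters, had a median of 0.384 per kb, from 0.127 at Maf, with 3 peaks, to 0.794 at Hsf4, a heat shock factor of fibre cells. Rarb, a retinoic acid receptor gene, had the most peaks, 87, over a long window.

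The 6 lens fibre genes had a median of 0.450 per kb, with the most peaks, 46, at Bfsp1, a beaded filament gene. The 3 further genes with the crystallin fold, Crybg1, Crybg2 and Crybg3, had 78, 41 and 27 peaks. The 3 enzyme crystallins had 62 at Cryl1, 29 at Cryz and 12 at Crym. The 6 classical gamma crystallin genes lay between 0.136 and 0.435 per kb and Crygn and Crygs at 0.521 and 0.649 per kb, against a median of 0.432 per kb over these 31 genes.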

How the data were processed

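Peak lists of 2 libraries were used, both labelled as GFP ChIP-seq of E10.5 heads. Per the submitters' processing notes, the tools were MACS2 2.1.0, Bowtie 1.1.2, Trimmomatic 0.33 and bcl2fastq 2.17, and mm10 and hg38 are listed as builds. Roles, settings and read filters are not given in the sources used here. The deposited lists give per peak a score (the whole part of 10 times −log10 q), the fold enrichment as a ratio, the −log10 p and −log10 q, and a summit offset, all computed by the authors' caller per library. Coordinates are counted from 1.

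Genes and promoters came from RefSeq tables of GRCm38.p6. Counts, densities and shares were computed with Python 3.11.15, pandas 2.3.3, numpy 2.4.6 and scipy 1.17.1, and figures with matplotlib 3.10.9. Whole pileups were solved from fold and −log10 p (tolerance 0.002) and recovered for 100% of peaks. Counting was checked on simulated lists. Promoters were aligned globally (match 1, mismatch -1, gap -2). The planned protein comparison was not run, because no protein sequences were used here. No test was made, because no contrast exists. Genes named are the 8 members, protein-coding genes within 100 kb of them, and the highest and lowest of each lens list, except 1 gene not reported here. Members and lists were chosen with earlier results of these data known.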

Additional observations from a re-analysis of the deposited data

How the results depend on the processing

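The 8 genes kept a library 1 peak, and library 2 kept 0 peaks, with every window (1, 5 and 20 kb), with any overlap of 1 bp, with a −log10 q of at least 5 and with peaks within 1 kb counted once. Among the peaks with the highest fold, 6 of 8 genes had one. Of 69 recomputed values, 24 moved and 45 did not, where a count moved if it changed by over 1.5 times and a density or ratio if it left the counting interval of the reported value. The 83 peaks of the 8 genes with 20 kb, though under 1.5 times 56, lie outside the counting interval of 56 (42.3 to 72.7). With 1 kb the peaks numbered 13 at Cryga to Crygf (0.506 per kb), 6 at Crygn, 5 at Crygs and 24 in all. With 5 kb Crygs had 9 and the 8 genes 37. With 20 kb Crygn and Crygs had 26 each. With a −log10 q of at least 5, Crygn had 5, Crygs 6 and the 8 genes 29. Among the highest folds, Cryga to Crygf had 6 (0.0621 per kb), Crygn 0, Crygs 0 and the 8 genes 6, and 12950 protein-coding genes had one. Counting neighbours once left 8 at Crygn, 8 at Crygs and 35 in all. The density ratio of Cryga to Crygf over Crygn and Crygs, chosen after seeing the data, was 0.443 as reported. It was 0.784 with 1 kb and 0.899 with a −log10 q of at least 5. With peaks within 1 kb counted once it was 0.652, which did not count as moved, though its interval (0.318 to 1.36) does not separate the 2 sets. Without replicate 1 no peak was left, and without replicate 2 all 56 stayed, since library 2 had none. Depth limits single peaks, whose pileups were 9 to 26 reads. Fewer peaks enter under stricter thresholds and smaller windows by construction. No paired analysis was possible because the libraries form 1 group.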
